A study of Mus musculus with 3 samples.

Results

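Genes for the recognition and uptake of apoptotic cells were followed across 3 dendritic cell (DC) subsets of mouse spleen. The 10 genes are the T cell immunoglobulin and mucin (TIM) receptor genes Havcr1 and Timd4, the TAM receptor tyrosine kinase genes Axl, Mertk and Tyro3, the genes of the TAM ligands Gas6 and Pros1, the bridging protein gene Mfge8, and the scavenger receptor genes Cd36 and Msr1. They were chosen as members of these families, by the gene symbol that the array annotation gives to a probe set, among 18194 genes in all. Each of the 10 was on the array, at 19 probe sets together, with 4 genes at a single probe set. The groups were plasmacytoid DC (pDC), CD8+ conventional DC (cDC) and CD11b+ cDC, all naive cells sorted from spleens of female C57bl/6 mice of 6 to 8 weeks after magnetic removal of T and B cells. No treatment, transgene or mutation is given for any of the groups. RNA of 5 to 8 mice was pooled for each subset and hybridised to 1 array, so no spread between animals could be measured, no test was run, and sort, amplification and hybridisation vary together with the cell type.

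A dying cell exposes phosphatidylserine on its outer membrane, and phagocytes recognise this lipid directly or through a bridging protein. TIM receptors bind phosphatidylserine themselves. Gas6 and protein S, the product of Pros1, bind it and engage the TAM kinases, which also dampen signalling by Toll-like receptors and interferon in DC, while MFG-E8, the product of Mfge8, links it to integrins. CD36 and the class A scavenger receptor encoded by Msr1 bind oxidised lipids and other polyanionic or lipid ligands. In mouse spleen, CD8+ cDC are the DC subset known for taking up dying cells and presenting their antigens to CD8+ T cells, whereas pDC secrete type I interferon in large amounts.

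A value is the deposited intensity of a probe set on a linear scale, called its signal here. A background level of 111 was set from 87 probe sets of taste, olfactory, vomeronasal and trace amine receptor genes, as their 95th percentile on the array with the highest one. Signals below it were set to it before log2 was taken, so a fold against an array below background is a lower bound. A gene was called higher where its signal exceeded background and was at least 2 times that of the other array. Each gene was represented by the probe set of highest mean log2 value, and signals of different genes were not compared, except in the search for genes of like pattern. Of the 10 genes, 5 (Axl, Mertk, Pros1, Mfge8 and Cd36) were above background on all 3 arrays, 2 (Havcr1 and Msr1) on 1 array only, and 3 (Timd4, Tyro3 and Gas6) on no array.

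Genes above background numbered 10336 to 10403 per array and median signals lay between 97.8 and 99.6. The ratio of 3' to 5' control signals for Actb was 5.71 in pDC, 4.08 in CD8+ cDC and 2.91 in CD11b+ cDC, and that for Gapdh 16.2, 17.6 and 9.68. Of 10 pDC marker genes, 10 were above background in pDC, with a summed signal of 1017350 against 24709.7 in CD8+ cDC and 33864.4 in CD11b+ cDC. Of 9 matched CD8+ cDC markers, 9 were above background in CD8+ cDC, where they summed to 1117640 against 115683 in pDC and 300528 in CD11b+ cDC. Among them Wdfy4 gave 332610 in CD8+ cDC and 242586 in CD11b+ cDC, and Batf3 gave 37688 and 30189. The 9 matched CD11b+ cDC markers were all above background in CD11b+ cDC. They summed to 449146 there, against 82057.9 in pDC and 10245.6 in CD8+ cDC. Of these, Cd4 was brighter in pDC (37301.9) than in CD11b+ cDC (14500.8). Of 7 matched T and NK cell markers, 2 were above background on each array (Cd247 and Il7r), and Cd3e, Cd3d and Cd3g were not. The list summed to 153036 in pDC, of which Il7r was 152617, and to 3161.9 in CD8+ cDC and 5839.8 in CD11b+ cDC. Of 8 matched B cell markers, 4 were above background in pDC, 4 in CD8+ cDC and 5 in CD11b+ cDC, among them Cd79b, Ms4a1 and Cd22, while Cd79a and Pax5 were below it on all 3. The B cell list summed to 66034.6 in pDC, 34270.5 in CD8+ cDC and 94430.4 in CD11b+ cDC. Most of these sums was Fcrla in pDC (54639.4), Ms4a1 (19147.3) and Fcrla (13002.8) in CD8+ cDC, and Cd22 in CD11b+ cDC (78539.6).

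Havcr1 was called higher in pDC than on both other arrays, Cd36 in CD8+ cDC, and Axl and Msr1 in CD11b+ cDC. The 300 bases around a RefSeq start of Havcr1, Cd36 and Axl (250 before it and 50 after it, assembly GRCm38.p6) are shown as the sequence context of these calls. Capitals mark every match, on either strand, to an E-box (CANNTG, the letters read by E proteins such as Tcf4) and to the core read by the myeloid factor PU.1 (GAGGAA, or TTCCTC on the other strand). Havcr1 has 3 starts in the table, and the first is shown, chr11:46739973-46740272 on the plus strand. The Cd36 window is chr5:17835847-17836146 and the Axl window chr7:25788684-25788983, both on the minus strand.
Havcr1: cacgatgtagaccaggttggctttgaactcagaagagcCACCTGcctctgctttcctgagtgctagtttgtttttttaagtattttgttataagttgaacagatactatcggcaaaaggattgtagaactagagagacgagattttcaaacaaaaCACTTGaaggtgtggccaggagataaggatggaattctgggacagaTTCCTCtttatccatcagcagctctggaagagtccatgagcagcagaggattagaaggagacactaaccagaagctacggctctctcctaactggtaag
Cd36: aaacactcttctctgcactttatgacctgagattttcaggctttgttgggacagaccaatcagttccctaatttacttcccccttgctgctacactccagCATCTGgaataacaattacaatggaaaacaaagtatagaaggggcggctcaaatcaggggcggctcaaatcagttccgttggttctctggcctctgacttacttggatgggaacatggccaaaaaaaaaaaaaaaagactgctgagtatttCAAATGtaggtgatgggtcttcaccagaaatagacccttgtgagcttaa
Axl: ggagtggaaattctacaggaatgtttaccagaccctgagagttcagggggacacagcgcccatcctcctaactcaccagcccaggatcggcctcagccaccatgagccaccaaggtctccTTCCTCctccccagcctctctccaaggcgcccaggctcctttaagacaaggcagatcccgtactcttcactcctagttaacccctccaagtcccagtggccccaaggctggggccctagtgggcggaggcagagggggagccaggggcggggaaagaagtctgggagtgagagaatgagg
The Havcr1 window held E-boxes at positions 39 (CACCTG) and 156 (CACTTG), counted from 1 at its 5' end, and a PU.1 core at position 202. The Cd36 window held E-boxes at positions 101 (CATCTG) and 252 (CAAATG), and the Axl window held a single PU.1 core at position 121. Among all 32851 windows of this kind, 72.3% held an E-box and 28.3% a PU.1 core. An AP-1 site (TGANTCA) and a TATA box (TATAAA), found in 7.81% and 13.6% of all windows on either strand, had no match in these 3 windows. Of the Havcr1 starts not shown, the window of start 2 held no match to any of these motifs. That of start 3 held an E-box at position 82 (CATATG) and an AP-1 site at position 261 (TGAATCA), and no PU.1 core. GC content of the windows shown was 43.7% for Havcr1, 43.0% for Cd36 and 60.3% for Axl. Matches describe letters only, and no binding was measured in these cells.

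Havcr1, encoding TIM-1, was measured in pDC alone. Its brighter probe set gave 81384.7 in pDC, 62.7 in CD8+ cDC and 56.7 in CD11b+ cDC, and the other probe set gave 8926.5, 106.8 and 102.3 in the same order. Both probe sets were below background on both cDC arrays. The signal in pDC was at least 732-fold higher than in either cDC subset at the first probe set and at least 80.3-fold higher at the second. Timd4, encoding TIM-4, the phosphatidylserine receptor of resident macrophages, gave 51.3 in pDC, 53.2 in CD8+ cDC and 58.4 in CD11b+ cDC at its single probe set. All 3 values lay below background, so the neighbouring family member gave no measured level in any subset.

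The genes most like Havcr1 were sought among 9296 genes by the distance between their log2 signals over the 3 arrays, each gene centred on its own mean. This search found Cdh1, encoding E-cadherin, Chdh, encoding choline dehydrogenase, and Siglech, a sialic acid-binding lectin gene used as a pDC marker. Their signals in pDC were 86751 for Cdh1, 71550.2 for Chdh and 106310 for Siglech. Each was below background in both cDC subsets, as Havcr1 was, so the distance came from the pDC array alone and no likeness is read from it.

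**Figure D1:**
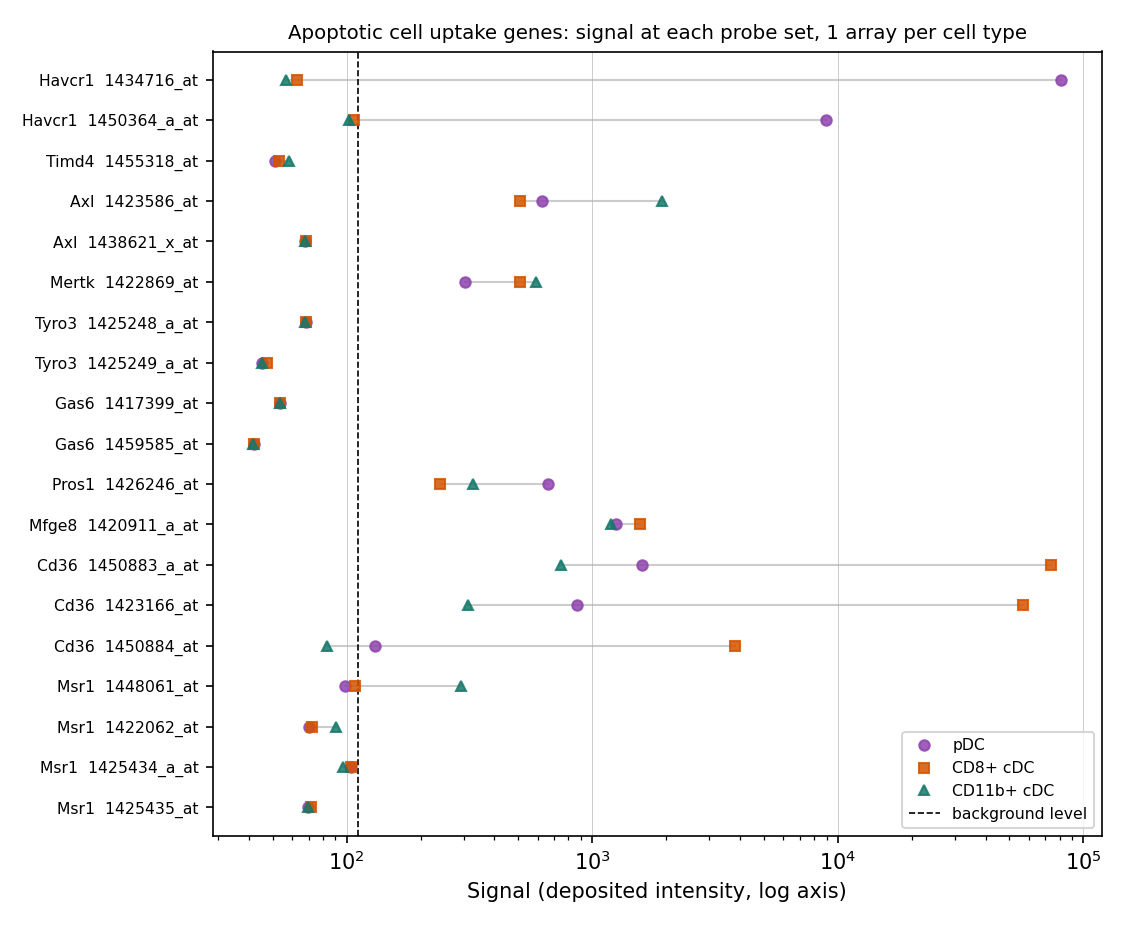
Signal of the 19 probe sets of the 10 uptake genes on the pDC, CD8+ cDC and CD11b+ cDC arrays (log axis, 1 symbol per array, dashed line at the background level of 111). Both Havcr1 probe sets are bright in pDC alone, all 3 Cd36 probe sets are brightest in CD8+ cDC, and every probe set of Timd4, Tyro3 and Gas6 lies below the line.

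Among the TAM receptors, Axl was highest in CD11b+ cDC, Mertk differed by less than 2-fold between any pair of subsets on the deposited scale, and Tyro3 was not above background. Axl gave 624.5 in pDC, 509.1 in CD8+ cDC and 1925.3 in CD11b+ cDC. It was thus 3.08-fold lower in pDC and 3.78-fold lower in CD8+ cDC than in CD11b+ cDC, while pDC and CD8+ cDC differed 1.23-fold. The call rests on 1 of 2 probe sets, since the other read 67.6, 68.6 and 67.6 and was below background on every array. Mertk, whose product is the main TAM kinase of tissue macrophages, gave 302.2 in pDC, 506.8 in CD8+ cDC and 592.7 in CD11b+ cDC. These differences were 1.68-fold (pDC below CD8+ cDC), 1.96-fold (pDC below CD11b+ cDC) and 1.17-fold (CD8+ cDC below CD11b+ cDC). With the arrays scaled on their hybridisation spike-ins, control transcripts added to every sample, the log2 differences from CD11b+ cDC were -1.33 for pDC and -1.22 for CD8+ cDC, past the 2-fold limit. Tyro3 gave 68.1, 68.5 and 67.7 for pDC, CD8+ cDC and CD11b+ cDC at its brighter probe set and 45.3, 47.3 and 45.2 at the other, all below background.

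The size of such differences can be read against the disagreement between probe sets of a gene. Where a gene had a second measured probe set, the SD of the disagreement was 0.89 (log2) in the pair of pDC and CD8+ cDC (4849 genes). It was 0.86 in the pair of pDC and CD11b+ cDC (4833 genes) and 0.74 in that of CD8+ and CD11b+ cDC (4807 genes). This SD is a spread within arrays and not between animals. The log2 differences of Axl, -1.62 for pDC minus CD11b+ cDC and -1.92 for CD8+ minus CD11b+ cDC, exceeded it. That of Mertk for pDC minus CD11b+ cDC (-0.97) exceeded it narrowly, and that for pDC minus CD8+ cDC (-0.75) did not.

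The ligands of the TAM receptors were at the low end of the measured range. Gas6 gave 53.6, 53.6 and 53.3 in pDC, CD8+ cDC and CD11b+ cDC at its brighter probe set and 41.8, 41.9 and 41.7 at the other, below background throughout. Pros1 gave 660.9 in pDC, 240.7 in CD8+ cDC and 327.5 in CD11b+ cDC at its single probe set. It was 2.75-fold higher in pDC than in CD8+ cDC and 2.02-fold higher than in CD11b+ cDC. The second of these lay at the 2-fold limit and fell below it when arrays were scaled on the hybridisation spike-ins (log2 difference 0.66). Signals of Pros1 in both cDC subsets, of Mertk in pDC and of Msr1 in CD11b+ cDC were also below 412, the 99th percentile of the receptor probe sets that set the background.

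Mfge8 was expressed at a similar signal in all 3 subsets. It gave 1255.2 in pDC, 1562.5 in CD8+ cDC and 1193.2 in CD11b+ cDC. The widest pair differed 1.31-fold (CD8+ cDC above CD11b+ cDC), and all 3 log2 differences were smaller than the SD between probe sets. The direction for this gene is not settled, since the log2 difference of 0.39 for CD8+ minus CD11b+ cDC was -0.61 with spike-in scaling. The integrin chains that receive MFG-E8 did differ. Itgav, the alpha v chain, gave 3203.3 in pDC, 11849.7 in CD8+ cDC and 12748.7 in CD11b+ cDC, and passed 2-fold at 2 of 3 probe sets for pDC and CD8+ cDC and at 1 of 3 for pDC and CD11b+ cDC. Itgb3, the beta chain of the vitronectin receptor, gave 20706.8 in pDC, 264.1 in CD8+ cDC and 3414.8 in CD11b+ cDC, so pDC were 78.4-fold above CD8+ cDC. Of the 2 probe sets of Itgb3, only 1 was measured. Itgb5, the alternative beta chain, gave 1178.0 in pDC, 2617.3 in CD8+ cDC and 880.6 in CD11b+ cDC and passed 2-fold at 1 of its probe sets only.

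Of the scavenger receptors, Cd36 stood out in CD8+ cDC and Msr1 was near background. The Cd36 probe set with the highest signal gave 1601.7 in pDC, 73733.3 in CD8+ cDC and 743.1 in CD11b+ cDC. The next gave 863.1, 56540.1 and 312.3 in the same order, and the dimmest 131.0, 3821.3 and 82.9. The CD8+ cDC array was thus the brightest at each of the 3 probe sets. At the first probe set Cd36 was 46.0-fold lower in pDC than in CD8+ cDC. The CD8+ cDC signal was 99.2-fold above that of CD11b+ cDC. Over the probe sets these folds ran from 29.2 to 65.5 and from at least 34.4 to 181. Between pDC and CD11b+ cDC, Cd36 was 2.16-fold higher in pDC at the first probe set and 2.76-fold at the second, whereas the dimmest gave at least 1.18-fold. With spike-in scaling this log2 difference of 1.11 became 0.75, below the 2-fold limit.

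The genes most like Cd36 by the same distance over the 3 arrays were Ttc39a (distance 0.49), Gpr33, encoding an orphan G protein-coupled receptor (0.53), and Dbn1, encoding the actin-binding protein drebrin (0.81). Ttc39a gave 464.2 in pDC, 28572.5 in CD8+ cDC and 178.8 in CD11b+ cDC. In the same order Gpr33 gave 207.6, 9818.3 and 152.8, and Dbn1 gave 70.3, 6771.9 and 113.3. Dbn1 was thus below background in pDC and near it in CD11b+ cDC. The distances rest mostly on the bright CD8+ cDC array, so no shared pattern beyond that is read from them. Msr1 gave 98.9 in pDC, 108.3 in CD8+ cDC and 293.2 in CD11b+ cDC at its brightest probe set. Its other 3 probe sets were below background on all arrays, between 69.8 and 104.4. The call of Msr1 as at least 2.64-fold lower in pDC and in CD8+ cDC than in CD11b+ cDC therefore rests on 1 of 4 probe sets.

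**Figure D2:**
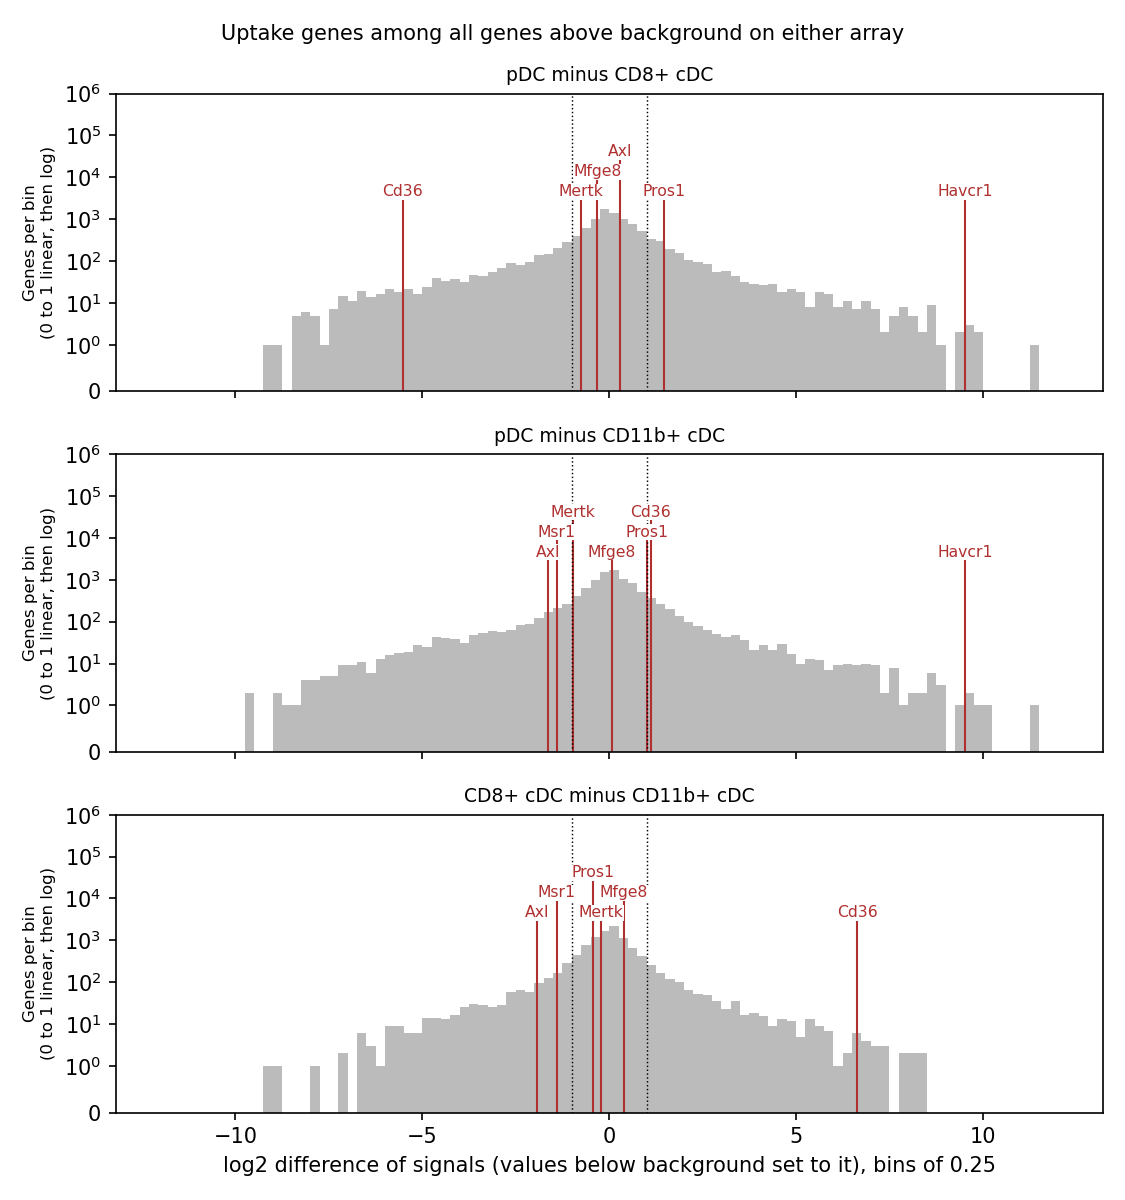
Distribution of log2 differences over all genes above background on either array of a pair (grey bars, bins of 0.25, vertical axis logarithmic above 1), with the measured uptake genes as red lines (their height only separates the labels) and the 2-fold limits dotted. Havcr1 lies at 9.52 in both comparisons of pDC, Cd36 at -5.52 for pDC minus CD8+ cDC and at 6.63 for CD8+ minus CD11b+ cDC, and Mfge8 lies within the 2-fold limits in all 3 panels.

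The size rule called from 3 to 5 members in each pair. Between pDC and CD8+ cDC, 6 of the 10 genes were measured (above background on either array of the pair), 2 were higher in pDC (Havcr1 and Pros1) and 1 was lower (Cd36), against 16.0% of all genes higher and 14.8% lower. Between pDC and CD11b+ cDC, 7 were measured, 3 were higher in pDC (Havcr1, Cd36 and Pros1) and 2 lower (Axl and Msr1), against 15.0% and 14.3% of all genes. Between CD8+ and CD11b+ cDC, 6 were measured, 1 was higher in CD8+ cDC (Cd36) and 2 lower (Axl and Msr1), against 9.86% and 10.3%. Median log2 differences of the measured members were -0.01, 0.07 and -0.34 in these 3 pairs, and those of all genes 0.00, 0.01 and 0.01. The members are too few for their shares to be read against those of all genes. The comparisons of pDC share the pDC array, so the values of Havcr1 in the pair are not separate evidence.

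Macrophages express Mertk, Axl, Timd4 and Msr1, and most of their marker genes were above background on each array. Of 15 macrophage markers, 11 were above background in pDC, 12 in CD8+ cDC and 13 in CD11b+ cDC, and their signals summed to 57426.9, 109262 and 194507. The median log2 signal of the list was 9.25 in pDC, 10.77 in CD8+ cDC and 10.59 in CD11b+ cDC, so the order of the cDC subsets differed between sum and median. Adgre1, encoding F4/80, gave 2640.6 in pDC, 3196.4 in CD8+ cDC and 70515.9 in CD11b+ cDC. Cd5l gave 3855.1, 3696.0 and 6171.4 in the same order. Vcam1 gave 20550.8, 68202.6 and 58884.2, Spic gave 515.4, 1974.7 and 1542.3, and Cd163 gave 1987.2, 616.0 and 599.7, so these were brightest in CD8+ cDC or in pDC. Vsig4 and Siglec1 were below background on every array. Monocyte markers were above background for 8 of 9 in pDC, 9 in CD8+ cDC and 9 in CD11b+ cDC, and summed to 30523.8, 208298 and 174553. Among them Csf1r, the receptor gene of a macrophage growth factor, gave 7665.2 in pDC, 11777.6 in CD8+ cDC and 64905.6 in CD11b+ cDC, while Treml4 gave 2207.6, 163968 and 28776.2. Neutrophil markers summed to 2734.7 in pDC, 1445.3 in CD8+ cDC and 17215.2 in CD11b+ cDC, with 7, 6 and 7 of 8 above background. The part of macrophage, monocyte or neutrophil RNA in the Axl, Mertk and Msr1 signals was not tested, and in sorted pools fewer cells of a type and less RNA per cell cannot be told apart.

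Platelets, erythroid cells and endothelium can also express Cd36. Of 9 matched platelet markers, 4 were above background on each array, and their signals summed to 1646.1 in pDC, 3325.7 in CD8+ cDC and 5914.8 in CD11b+ cDC. The platelet chemokine gene Pf4 gave 218.5, 519.5 and 1987.6 in the same order, and Clec1b, a receptor gene of platelets, gave 790.1, 2051.6 and 2047.0. Erythroid markers summed to 16426.8 in pDC, 12985.4 in CD8+ cDC and 20475.8 in CD11b+ cDC, with 6, 5 and 6 of 7 above background. Endothelial markers summed to 32830.1 in pDC, 2811.2 in CD8+ cDC and 3693.3 in CD11b+ cDC, with 6, 5 and 5 of 10 above background. Most of the sum in pDC was Kdr (18603.6) and Cdh5 (11542.0). Kdr gave 111.7 in CD8+ cDC and 397.2 in CD11b+ cDC, and Cdh5 was below background in both. Flt1 was above background in CD8+ cDC alone (637.5). The part of such cells in the Cd36 signal was not tested.

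Other receptors of dying cells were compared as background to the family. Of 28 listed, 27 were matched. Of the measured ones, 6 of 20 were higher in pDC than in CD8+ cDC and 6 lower, 3 of 24 were higher in pDC than in CD11b+ cDC and 9 lower, and 5 of 23 were higher in CD8+ than in CD11b+ cDC and 9 lower. Median log2 differences were -0.02, -0.38 and -0.42 in these pairs. Among all genes, 16.0% were higher and 14.8% lower in the first pair, 15.0% and 14.3% in the second, and 9.86% and 10.3% in the third, so the 3 of 24 is near the share of all genes. The 9 lower in pDC than in CD11b+ cDC included Itgam and Itgax, whose products belong to complement receptors and mark DC sorts.

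The other TIM genes split between the subsets. Havcr2, encoding TIM-3, a checkpoint receptor that also binds phosphatidylserine, gave 1801.6 in pDC, 67422.8 in CD8+ cDC and 30909.7 in CD11b+ cDC. It was 37.4-fold and 17.2-fold lower in pDC than in CD8+ and CD11b+ cDC, opposite to Havcr1. Timd2, a mouse TIM gene whose product binds ferritin, gave 1208.1 in pDC and 56.1 and 55.2 in CD8+ and CD11b+ cDC, at least 10.9-fold higher in pDC at 1 of 2 measured probe sets.

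The CD300 receptors, several of which bind phosphatidylserine or other membrane lipids, were lowest in CD8+ cDC or at background there. Cd300lf gave 50234.9 in pDC, 1976.5 in CD8+ cDC and 48214.2 in CD11b+ cDC. Cd300a, an inhibitory member, gave 35078.2, 12355.8 and 109410 in the same order. Cd300ld gave 247.7, 157.2 and 2814.1, and Cd300lb, an activating member, was measured in CD11b+ cDC alone (1634.9). Between pDC and CD8+ cDC, Cd300a passed 2-fold at 1 of 2 probe sets, and Cd300ld was not called (1.58-fold). Lrp1, an endocytic receptor for calreticulin, gave 133.9 in pDC, 108.2 in CD8+ cDC and 939.7 in CD11b+ cDC.

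Among scavenger-type receptors, Scarb1, the class B relative of CD36 that binds lipoproteins, gave 31456.6 in pDC, 54375.5 in CD8+ cDC and 16797.0 in CD11b+ cDC, 3.24-fold higher in CD8+ than in CD11b+ cDC. Scarb2, the lysosomal member of the class, gave 52631.0 in pDC, 21858.9 in CD8+ cDC and 13518.1 in CD11b+ cDC. It was thus 2.41-fold higher in pDC than in CD8+ cDC, passing 2-fold at 1 of 2 probe sets. Against CD11b+ cDC it was 3.89-fold higher in pDC, passing at 2 of 2. Cxcl16, a membrane-bound chemokine that binds oxidised lipoprotein, was below background in pDC and gave 35378.7 in CD8+ cDC and 4602.8 in CD11b+ cDC. Ager gave 170.9, 997.1 and 216.9 in pDC, CD8+ and CD11b+ cDC, and CD8+ cDC passed 2-fold over each other array at 1 of 2 probe sets. Cd93 was at least 7.25-fold lower in CD8+ than in CD11b+ cDC, but passed 2-fold at only 1 of 3 measured probe sets. Cd14, an endotoxin coreceptor, was 2.00-fold lower in CD8+ than in CD11b+ cDC.

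Of 14 genes listed for other bridging proteins, 13 were matched. Between pDC and CD8+ cDC, 2 of 8 measured were lower in pDC and 0 higher, against 14.8% and 16.0% of all genes. Between pDC and CD11b+ cDC 5 of 7 were lower and 0 higher, against 14.3% and 15.0%, with median log2 differences of -0.53 and -1.65. Between CD8+ and CD11b+ cDC, 1 of 8 was higher in CD8+ cDC and 3 were lower, against 9.86% and 10.3%, with a median of 0.10. The complement genes C1qa, C1qb and C1qc, whose products opsonise dying cells, were 4.34-fold, 3.13-fold and 2.92-fold lower in pDC than in CD11b+ cDC. They are also macrophage markers and were counted among them above. Anxa1, encoding annexin A1, was 102-fold and 55.5-fold lower in pDC than in CD8+ and CD11b+ cDC. Lgals3, encoding galectin-3, gave 5038.3 in pDC, 195334 in CD8+ cDC and 21261.4 in CD11b+ cDC.

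**Figure D3:**
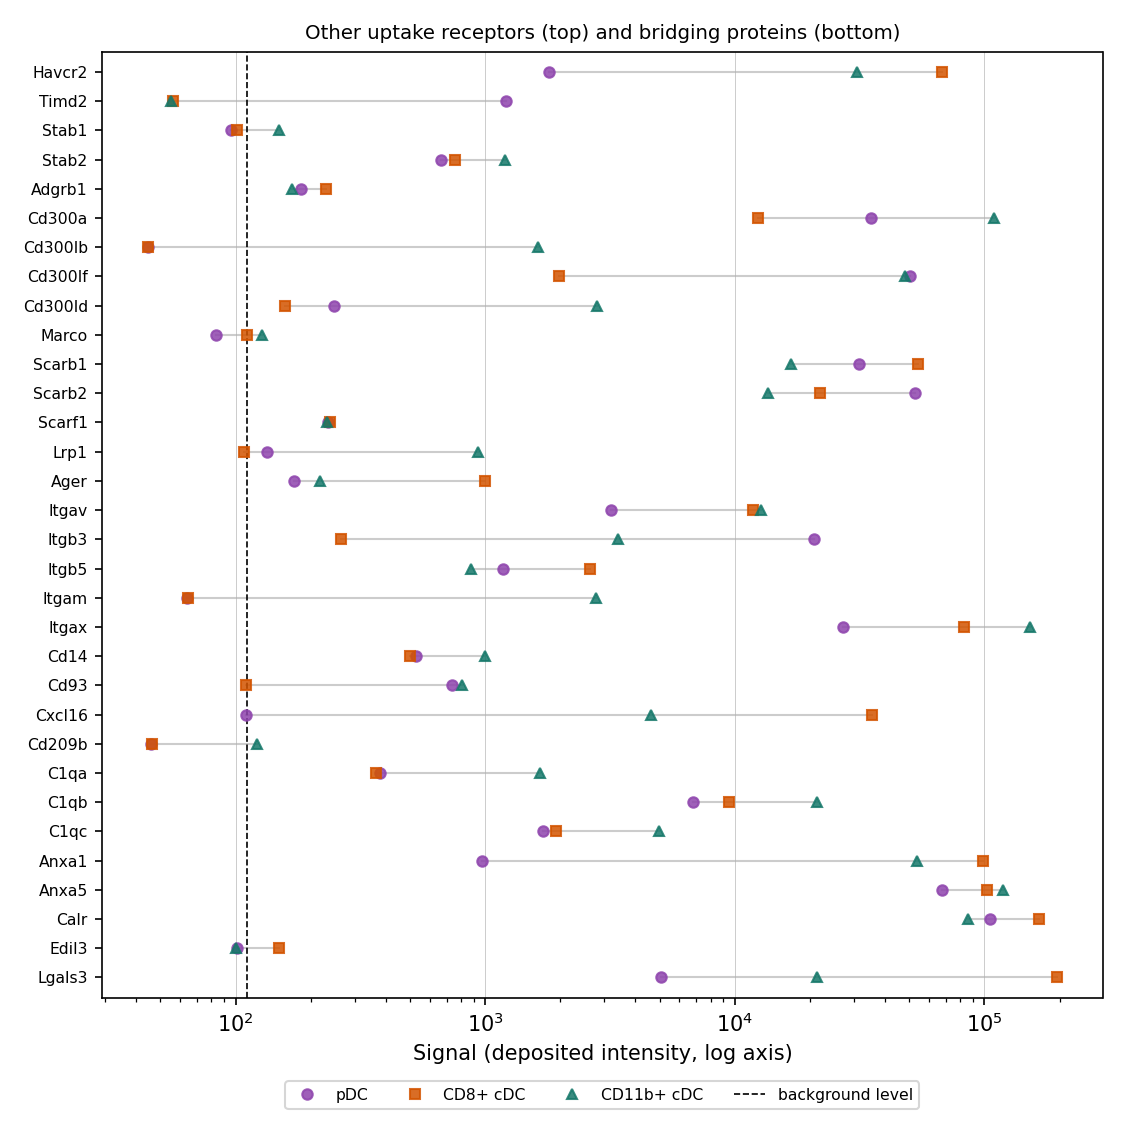
Signal of other uptake receptors (upper rows, Havcr2 to Cd209b) and bridging proteins (lower rows, C1qa to Lgals3) that exceeded the background level (dashed line, 111) on at least 1 array, 1 symbol per array on a log axis. Havcr2, Cxcl16 and Anxa1 are dimmest in pDC, Itgb3 is brightest in pDC, and Cd300a, Cd300lf and Cd300ld are dimmest in CD8+ cDC.

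Engulfment signalling genes turn receptor binding into actin movement. Of 15 measured, 7 were lower in pDC than in CD11b+ cDC and 0 higher (median log2 difference -0.48), against 14.3% and 15.0% of all genes. Between pDC and CD8+ cDC 2 were higher and 4 lower (median -0.13), against 16.0% and 14.8%, and between CD8+ and CD11b+ cDC 2 were higher and 6 lower (median -0.43), against 9.86% and 10.3%. Elmo1, whose product forms a guanine nucleotide exchange factor with that of Dock1, gave 1515.6 in pDC, 4603.8 in CD8+ cDC and 18840.0 in CD11b+ cDC. Dock1 gave 84.4, 137.9 and 347.2 in the same order, and Elmo2 gave 2649.4, 3968.3 and 8929.5. The 3 genes were thus dimmest in pDC and brightest in CD11b+ cDC. Rac2, a haematopoietic Rac GTPase gene, went the other way between pDC and CD8+ cDC, with 64828.9 and 10326.9, and gave 43199.7 in CD11b+ cDC.

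Genes of corpse digestion and the lipid response to engulfed cells were mixed. Of 20 measured, 2 were higher in pDC than in CD8+ cDC and 6 lower (median -0.03), against 16.0% and 14.8% of all genes. Between pDC and CD11b+ cDC, 3 were higher in pDC and 3 lower (median 0.24), near the 15.0% and 14.3% of all genes. Between CD8+ and CD11b+ cDC, 3 of 19 were higher and 1 lower (median 0.20), against 9.86% and 10.3%. Npc1, which exports cholesterol from the lysosome, gave 34328.8 in pDC, 2658.2 in CD8+ cDC and 8120.7 in CD11b+ cDC. Lipa, the lysosomal acid lipase gene, gave 12263.3, 40935.0 and 25013.5 in the same order, and all 3 of its probe sets passed 2-fold in both comparisons of pDC. Pparg and Nr1h3, nuclear receptors that sense engulfed lipid, were below background in pDC and gave 309.4 and 177.4 in CD8+ cDC and 206.5 and 258.4 in CD11b+ cDC. These signals all lay below 412, the 99th percentile of the receptor probe sets that set the background. Only Pparg in CD8+ cDC (at least 2.78-fold) and Nr1h3 in CD11b+ cDC (at least 2.32-fold) passed 2-fold over pDC. Rxra, their common partner, gave 2419.4 in pDC, 5641.4 in CD8+ cDC and 1521.7 in CD11b+ cDC. Cd36 is itself a known target gene of PPAR-gamma in macrophages, and a link between the 2 genes was not tested here.

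**Figure D4:**
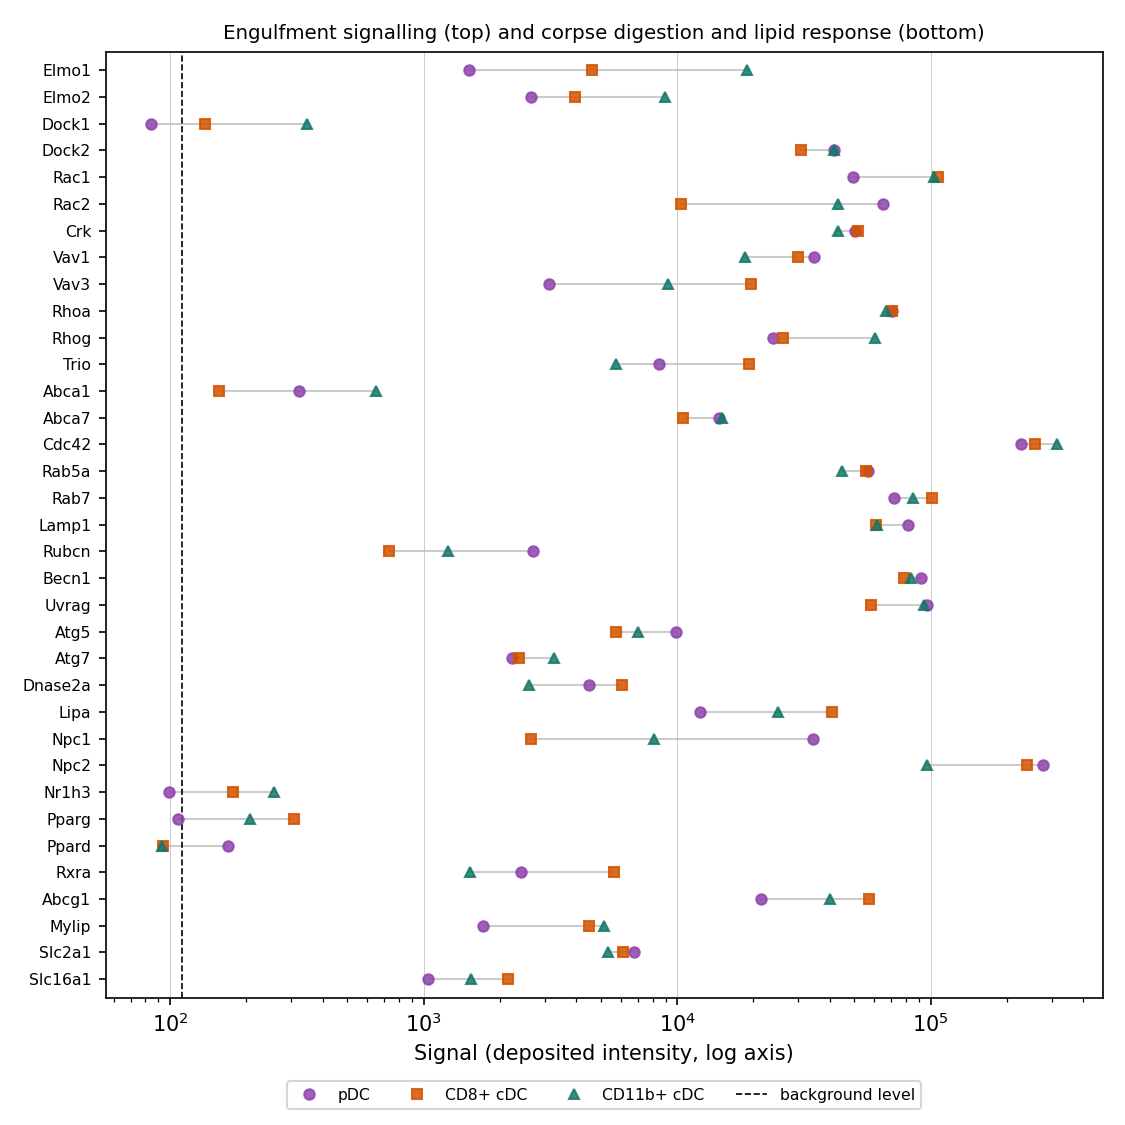
Signal of engulfment signalling genes (upper rows, Elmo1 to Cdc42) and of corpse digestion and lipid response genes (lower rows, Rab5a to Slc16a1) above the background level (dashed line, 111) on at least 1 array, 1 symbol per array on a log axis. Elmo1, Elmo2 and Dock1 are dimmest in pDC and brightest in CD11b+ cDC, and Npc1 is brightest in pDC.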

How the data were processed

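Total RNA of 3 sorted DC subsets was measured on Affymetrix arrays, 1 per subset. Per the labels' protocols, 20 ng was amplified into biotinylated cRNA. The authors deposited intensities on a linear scale. MAS5, with no version, is named in the submitters' processing notes, and further scaling is not stated there. The annotation pairs 34958 of 45101 probe sets with 1 gene, 932 with several and 9211 with none. All 10 members were also found by gene number in the RefSeq gene table of GRCm38.p6, and windows for all but Msr1 were in its promoter table.

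From the intensities, a background level, floored log2 values, differences of the 3 pairs and distances were computed with Python 3.11.15, numpy 2.4.6 and pandas 2.3.3, and the calling was tested on simulated data. With 1 array per subset, depth is given by signal over background and the number of arrays limits the precision. The members and gene lists were chosen with earlier results of these data known. Named genes are all members and the called uptake receptors and bridges. Also named are up to 4 called genes of largest log2 difference per pair and direction over all pathway lists, and genes that describe a list. Of the pathway entries, 99 of 106 were matched, and the rest were not analysed here. Alternatives concerned the background level, pseudocount, scaling, probe set, saturation and fold.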

Additional observations from a re-analysis of the deposited data

How the results depend on the processing

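No paired analysis was possible because each cell type has 1 array. No member called at 2-fold changed sign under any alternative. Of 240 recomputed member differences, 229 moved by less than the SD between probe sets. Many of these could hardly move. Timd4, Tyro3 and Gas6 were below background on every array, and leaving out probe sets named _x_at or _s_at changed no member value. The count of 229 is therefore not a measure of robustness. Havcr1 stayed between 7.63 and 9.81 (log2) in both comparisons of pDC, Cd36 between -5.58 and -4.89 for pDC minus CD8+ cDC and between 5.64 and 6.66 for CD8+ minus CD11b+ cDC, and Axl between -2.91 and -1.73 for CD8+ minus CD11b+ cDC.

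Spike-in scaling shifted the median of all genes to 0.65 for pDC minus CD8+ cDC, -0.30 for pDC minus CD11b+ cDC and -0.95 for CD8+ minus CD11b+ cDC, and the share of calls on the first side to 77.6%, 34.8% and 7.87%, against 51.9%, 51.2% and 49.0% as deposited. It left 1 member (Havcr1) higher in pDC than in CD11b+ cDC in place of 3, and made 4 lower in CD8+ than in CD11b+ cDC (Axl, Mertk, Msr1 and Pros1) in place of 2. Of the other pathway genes, 12 in place of 22 were then lower in pDC than in CD8+ cDC, and 5 in place of 15 were higher and 42 in place of 24 lower in CD8+ than in CD11b+ cDC. These shifts follow from the scaling itself. With the background at the 99th percentile, 1 member was higher in pDC than in CD8+ cDC (Havcr1), 1 was lower in pDC than in CD11b+ cDC and 1 lower in CD8+ than in CD11b+ cDC (Axl in both), as Pros1 and Msr1 fell under the limit. With log2(intensity + 100), the last 2 counts were also 1. At 3-fold, the member counts were 1 higher in pDC than in CD8+ cDC, 1 higher and 1 lower in pDC than in CD11b+ cDC and 1 lower in CD8+ than in CD11b+ cDC. The pathway counts at 3-fold were 14 lower in pDC than in CD8+ cDC, 6 higher in pDC than in CD11b+ cDC (10 at 2-fold), and 8 higher and 15 lower in CD8+ than in CD11b+ cDC. At 1.5-fold, 2 members were lower in pDC than in CD8+ cDC (Cd36 and Mertk), while 20 pathway genes were higher in pDC than in CD11b+ cDC and 23 higher in CD8+ than in CD11b+ cDC. The remaining 48 member counts and 51 pathway counts stayed within 1.5 times.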

Other observations

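Some genes of signals that protect a cell from uptake, or expose its lipids, differed between the subsets as well. Cd47, the main signal against engulfment, gave 152308 in pDC, 39976.8 in CD8+ cDC and 85684.0 in CD11b+ cDC, and pDC stood at least 2-fold above CD8+ cDC at all 5 of its probe sets. Its receptor gene Sirpa, a marker of CD11b+ cDC, gave 36974.1, 2545.0 and 78989.1 in the same order. Cd24a, a marker of CD8+ cDC, was 8.57-fold lower in pDC than in CD8+ cDC, and Siglecg, whose product binds CD24, was 13.5-fold lower in CD8+ than in CD11b+ cDC. All 10 matched genes of this list were measured. Between pDC and CD8+ cDC, 4 were higher in pDC and 2 lower (median log2 difference 0.32), against 16.0% and 14.8% of all genes. Between pDC and CD11b+ cDC, 1 was higher in pDC and 3 lower (median 0.12), against 15.0% and 14.3%. Between CD8+ and CD11b+ cDC, 2 were higher in CD8+ cDC and 4 lower (median -0.27), against 9.86% and 10.3%. The list is too short for its shares to be read against those of all genes.

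Genes that act after TAM receptors or shed them were measured for 9 of 12 matched entries. Of these 9, 4 were higher and 2 lower in pDC than in CD8+ cDC (median 0.41), against 16.0% and 14.8% of all genes. Between pDC and CD11b+ cDC, 3 were higher in pDC and 1 lower (median 0.61), against 15.0% and 14.3%. Between CD8+ and CD11b+ cDC, 2 were higher in CD8+ cDC and 1 lower (median 0.20), against 9.86% and 10.3%. This list, too, is too short for its shares to be read against those of all genes. The interferon receptor genes, whose products pair with TAM kinases in DC, were on the pDC side. Ifnar1 gave 16410.9 in pDC, 7213.7 in CD8+ cDC and 3654.1 in CD11b+ cDC, and Ifnar2 gave 69843.9, 11533.2 and 21935.1. Socs3, a feedback inhibitor of cytokine signalling, gave 11870.2, 1547.8 and 4011.3. Adam10, a sheddase gene, was 2.42-fold higher in pDC than in CD8+ cDC. The adaptor gene Nck2 was 102-fold and 36.1-fold lower in pDC than in CD8+ and CD11b+ cDC, passing 2-fold at 2 of 2 and at 1 of 2 measured probe sets. Socs1, Twist1 and Twist2 were below background on all arrays.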
